A study of Rattus norvegicus and Mus musculus with 34 samples.

Results

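The genes described here are 10 members of the Wnt pathway, picked by name from the rat tables, where their symbols stand among 20022 genes. They are 5 Wnt ligands (Wnt5a, Wnt7b, Wnt10a, Wnt10b and Wnt16), 3 secreted inhibitors (Dkk1, Sfrp1 and Sfrp2) and 2 genes that the pathway switches on or acts through (Axin2 and Lef1). Male wild-type Sprague-Dawley rats of 6 to 8 weeks received a defect of 5 mm × 2 mm × 1 mm in the buccal bone of the mandible next to the molars, and healing tissue was taken from it after 3, 7 or 14 days. In the sensory nerve+ rats the inferior alveolar nerve was intact. In the sensory nerve− rats about 5 mm of this nerve, which carries sensation from the lower jaw, was cut out in the same operation. All rats had the bone defect and received penicillin for 3 days, and sham surgery on the nerve is not described in the sources used here. There were 4 rats in each group, except 3 in the sensory nerve+ group of day 3, which gives 23 rats in 6 groups.

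Wnt proteins are secreted signals that bind Frizzled receptors and, in the canonical branch, the co-receptors LRP5 and LRP6. β-catenin then accumulates and acts in the nucleus with TCF and LEF factors. Dkk1 blocks the co-receptors, and Sfrp proteins bind Wnt proteins outside the cell. In bone the canonical branch is known for driving osteoblast formation, and Dkk1 and the Sfrp proteins for restraining it. In the tooth germ the same signals pattern the crown and its cells.

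The libraries held between 14854389 and 18742274 counts each. Levels are given as CPM, which are counts relative to the library total after TMM scaling, and are compared between rats but not between genes, because no transcript lengths were used. The tissue was mixed. Osteoblast and fibroblast markers were present in every rat, with Col1a1 giving 90.8% of the summed osteoblast markers. Haemoglobin and other erythroid markers took 0.2% to 39% of all counts, the highest share being in rat 3 of the sensory nerve− group at day 14. The 6 tooth markers, of which Amelx and Ambn carried most, summed to more than 3000 CPM in 3 rats, all of day 3 (2 sensory nerve+ and 1 sensory nerve−), and Enam, Amtn and Odam were at or below 3 counts in 15 of the 23 rats. The 6 skeletal muscle markers summed to between 18.0 and 453 CPM at day 3 and to between 209 and 29782 CPM later. Markers of Schwann cells, which wrap nerve fibres, overlapped between the nerve groups on each day, and at day 14 they summed to between 273 and 2608 CPM with the nerve and between 134 and 289 CPM without it. The sensory nerve− rats of day 7 came from a separate table, so that group and its table cannot be told apart.

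Wnt7b, a canonical ligand with a known part in osteoblast formation, was the member whose TMM-scaled levels separated day 3 from the later days. At day 3 the sensory nerve+ rats held 2.36, 11.5 and 7.16 CPM and the sensory nerve− rats 2.33, 5.95, 13.6 and 5.01 CPM. At day 7 the sensory nerve+ rats held 0.393, 0.469, 1.54 and 0.928 CPM and the sensory nerve− rats 0.056, 1.09, 0.782 and 0.834 CPM. At day 14 the values were 0.219, 0.598, 0.402 and 0.344 CPM with the nerve and 0.488, 1.46, 0 and 1.37 CPM without it. All 7 rats of day 3 lay above all 16 later rats, whose highest value was 1.54 CPM. This separation rests on the TMM scaling. Sensory nerve+ rat 1 of day 3 and rat 3 of day 7 had 36 counts each, with TMM factors of 0.834 and 1.35. By library total alone (18269414 and 17293310 counts) the rat of day 7 would be the higher of these. On each day the rats with and without the nerve overlapped. Between day 3 and a later day of the same nerve group, 21.6% to 26.7% of all genes tested had no overlap. The share of genes that separate all 7 from all 16 rats was not counted. The later rats had few reads of Wnt7b, from 0 to 36 counts, so their levels are loosely measured. In bulk tissue, fewer cells of a type and less RNA per cell cannot be told apart.

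Wnt7b fell in all 4 comparisons of a later day with day 3. Each comparison was fitted by edgeR (quasi-likelihood test), p was adjusted by Benjamini-Hochberg over all genes tested, and a gene is called where that adjusted p is under 0.05. With the nerve intact, Wnt7b was 7.94-fold lower at day 7 than at day 3 (log2 fold change -2.99, SE 0.689, edgeR adjusted p = 0.0493) and 17.5-fold lower at day 14 (-4.13, SE 0.628, edgeR adjusted p = 0.0305). After transection it was 9.89-fold lower at day 7 (-3.31, SE 0.806, edgeR adjusted p = 0.0409) and 8.15-fold lower at day 14 (-3.03, SE 0.905, edgeR adjusted p = 0.0447). The day 3 rats serve in both comparisons of each nerve group, so the 4 results are not independent. Wnt7b passed the filter on low counts through its level at day 3, and between days 7 and 14 with the nerve intact it was not tested.

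The calls of Wnt7b lie close to the threshold. With 1 rat left out, Wnt7b stayed called in 1 of 7 fits for day 7 and 2 of 7 for day 14 with the nerve intact, and in 1 of 8 and 2 of 8 fits after transection. The rats whose absence left the call in place were sensory nerve+ rat 3 of day 7 for the first comparison, sensory nerve+ rat 1 of day 3 and rat 2 of day 14 for the second, sensory nerve− rat 1 of day 7 for the third, and sensory nerve− rats 2 and 3 of day 14 for the last. Wnt7b was lower on the later day in each of these fits. Without the 3 rats rich in tooth markers, the log2 fold changes were -1.46 at day 7 and -2.54 at day 14 with the nerve intact (edgeR adjusted p = 0.381 and 0.139), where 1 rat of day 3 remained and was assumed to vary like the later group. After transection they were -2.68 and -2.41 (edgeR adjusted p = 0.0742 and 0.0913). Across the 23 rats Wnt7b correlated with the summed muscle markers at r = -0.796 and with the tooth markers at r = 0.671, and the part of either tissue in its fall was not tested. After removing the group means these were -0.533 and 0.46, beside 0.675 for the summed cartilage markers and 0.551 for the osteoblast markers. The genes most like Wnt7b were Tbrg1, Nt5dc2 and Nme1 (r = 0.897, 0.897 and 0.896).

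**Figure D1:**
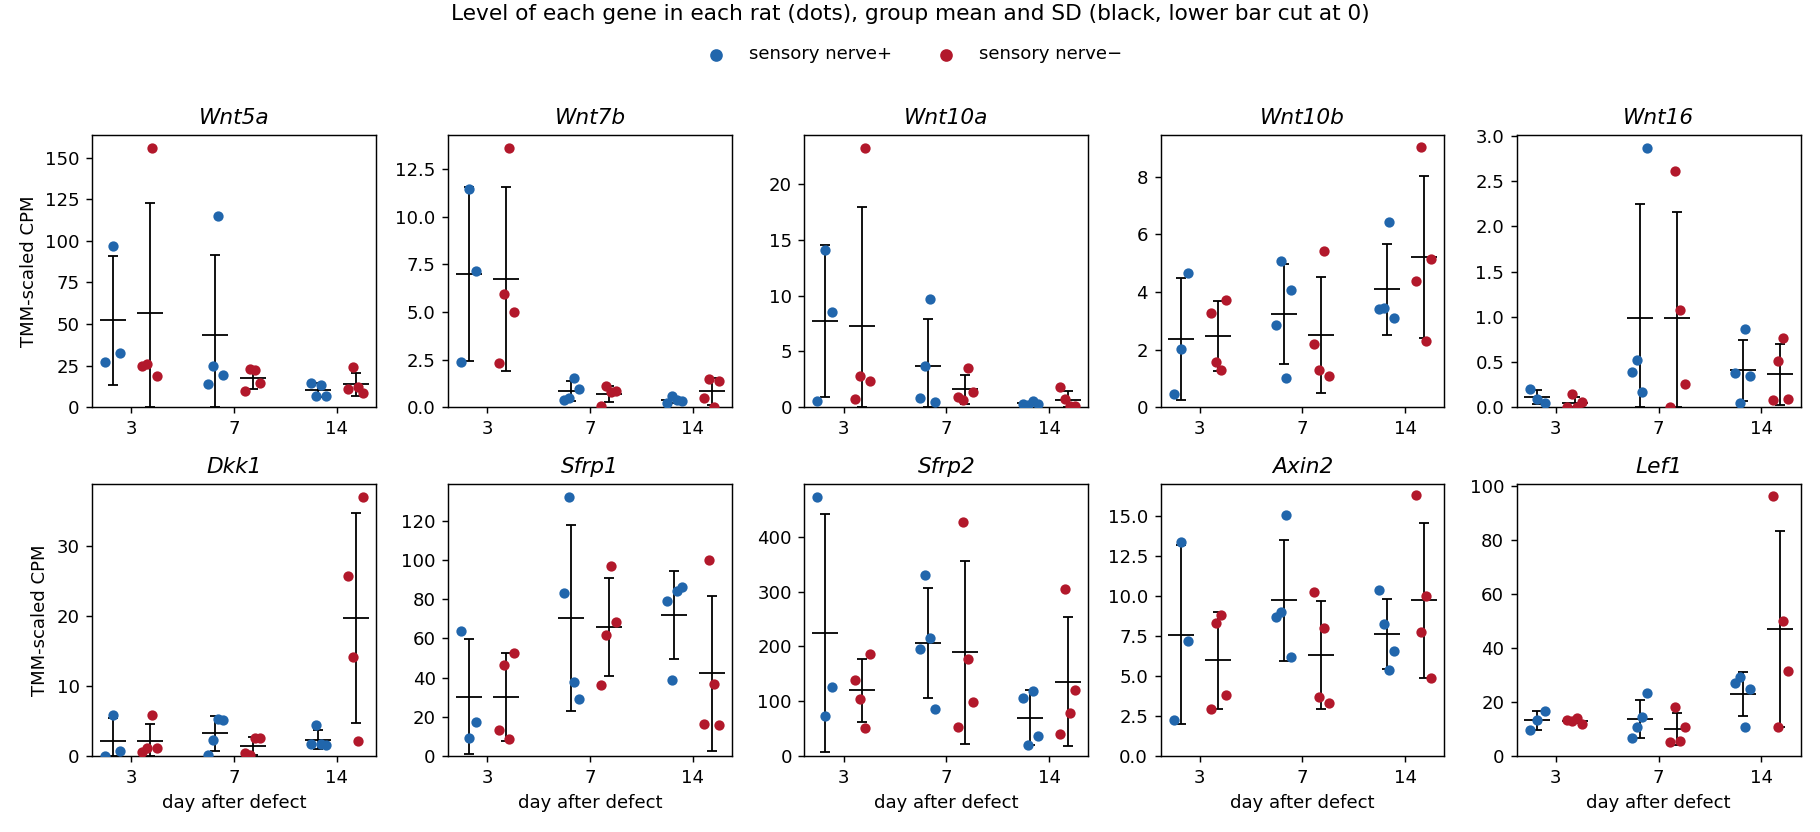
Level of each of the 10 genes in TMM-scaled CPM (vertical axis, 1 scale per gene) in each rat (dots, blue with the nerve and red after transection) at days 3, 7 and 14, with the group mean and SD in black. Wnt7b is high only in the rats of day 3, and 3 of the 4 red dots of day 14 lie above every other rat for Dkk1 and for Lef1.

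Wnt10a, a ligand needed for teeth and other ectodermal organs, differed widely between rats of the same group. At day 3 the sensory nerve+ rats held 0.525, 14.1 and 8.55 CPM and the sensory nerve− rats 0.700, 2.76, 23.3 and 2.37 CPM. At day 14 Wnt10a lay between 0.199 and 0.517 CPM with the nerve and between 0.092 and 1.79 CPM without it. The 3 highest rats of day 3 were the 3 rats rich in tooth markers. Over the 23 rats the genes most like Wnt10a were Amelx (r = 0.914), Ambn (r = 0.907) and Mmp20 (r = 0.901), which encode enamel matrix proteins and an enamel protease. These correlations are over rats that share group, depth and tissue makeup, and are a description only. Amelx and Ambn are also 2 of the 6 tooth markers.

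After transection Wnt10a was 10.7-fold lower at day 14 than at day 3 (log2 fold change -3.42, SE 1.30, 95% confidence interval -6.39 to -0.45), which was not called (edgeR adjusted p = 0.0894), while DESeq2 (adjusted p = 0.0156) and 1 fit of all 23 rats called it. Without sensory nerve− rat 3 of day 3 the log2 fold change was -1.49 (edgeR adjusted p = 0.286). With the nerve intact the 4 rats of day 14 lay below the 3 rats of day 3, but only by 0.517 against 0.525 CPM. These were 9 counts in rat 3 of day 14 and 8 counts in rat 1 of day 3, so this order rests on the TMM scaling. Of all genes tested in this comparison, 24.6% had no overlap. Wnt10a was not tested in it, because too few rats had enough counts. Wnt10a was called there by DESeq2, in 1 fit of all 23 rats and without sensory nerve+ rat 1 of day 3.

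Wnt5a, the classic ligand of the branch that works without β-catenin, had its lowest group means at day 14 in both nerve groups, and 3 rats of the earlier days lay far above the rest of their groups. The sensory nerve+ rats held 27.3, 96.8 and 32.3 CPM at day 3, 13.7, 24.6, 115 and 19.2 CPM at day 7, and 14.8, 6.78, 13.0 and 6.53 CPM at day 14. The sensory nerve− rats held 24.7, 26.0, 156 and 18.8 CPM at day 3, 9.43, 23, 22.3 and 14.8 CPM at day 7, and 11.1, 24.0, 11.9 and 8.42 CPM at day 14. With the nerve intact, all rats of day 14 lay below all rats of day 3, while after transection the days overlapped. The difference with the nerve intact was 5.06-fold (log2 fold change -2.34, SE 0.545) and just missed the threshold (edgeR adjusted p = 0.0526, and 0.0469 without sensory nerve+ rat 2 of day 14). DESeq2 (adjusted p = 0.000697) and 1 fit of all 23 rats (edgeR adjusted p = 0.0451) called it. After transection it was 4.20-fold (-2.07, SE 0.759, edgeR adjusted p = 0.0818, and 0.049 in 1 fit of all 23 rats), and -0.76 on the log2 scale (edgeR adjusted p = 0.163) without sensory nerve− rat 3 of day 3. Wnt5a and Wnt10a were high in the same rats (r = 0.834, and 0.718 after removing the group means). The genes most like Wnt5a were Cox4i2, Rcn2 and Twist2 (r = 0.936, 0.932 and 0.923), of which Twist2 is a transcription factor of connective tissue cells.

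Wnt10b, a canonical ligand that favours osteoblasts over fat cells, was called in 0 comparisons, and 0 had an unadjusted p under 0.05 or a DESeq2 call for it. Its group means were 2.37 ± 2.11, 3.25 ± 1.73 and 4.09 ± 1.57 CPM (SD, n = 3, 4 and 4) at days 3, 7 and 14 with the nerve intact. After transection they were 2.47 ± 1.20, 2.50 ± 2.01 and 5.21 ± 2.80 CPM (SD, n = 4 each). The groups overlapped in all 9 pairwise comparisons, and its difference with the smallest p, day 14 over day 3 after transection, was 1.06 on the log2 scale (95% confidence interval -0.07 to 2.19, edgeR adjusted p = 0.151). Pth1r, the receptor for parathyroid hormone, was among the 3 genes most like Wnt10b (r = 0.751).

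Wnt16, a ligand known for maintaining cortical bone, was near the limit of detection. It had 3 counts or fewer in all 7 rats of day 3, and its 2 highest values were 2.87 CPM in a sensory nerve+ rat and 2.61 CPM in a sensory nerve− rat, both of day 7. Wnt16 passed the filter only in the fit of all 23 rats. There the transection effect averaged over the days was -0.39 on the log2 scale (95% confidence interval -1.86 to 1.08, edgeR adjusted p = 0.946). For day 7 over day 3 after transection, in which it did not pass the filter, Wnt16 was called in 2 alternatives, DESeq2 and 1 fit of all 23 rats. The gene most like Wnt16 was Fam180a (r = 0.815).

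The stretches of promoter before the start of Dkk1, Axin2 and Lef1 are shown because these 3 genes are read as outputs of β-catenin with TCF and LEF factors. They are the 250 bases before the start in RefSeq on GRCr8, not the build of the reads, written 5′ to 3′ on the strand of the gene, with capitals marking matches on either strand to a TCF/LEF word, which is CTTTGAA or else CTTTGAT or else CTTTGTA or else CTTTGTT. They lie at chr1:237798651-237798900 (minus strand), chr10:94398535-94398784 (plus strand) and chr2:222340463-222340712 (plus strand).
Dkk1: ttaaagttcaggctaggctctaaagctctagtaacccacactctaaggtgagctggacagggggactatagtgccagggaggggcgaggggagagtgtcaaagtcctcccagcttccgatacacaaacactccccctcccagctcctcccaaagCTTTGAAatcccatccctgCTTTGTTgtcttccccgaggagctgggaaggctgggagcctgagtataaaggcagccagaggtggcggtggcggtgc
Axin2: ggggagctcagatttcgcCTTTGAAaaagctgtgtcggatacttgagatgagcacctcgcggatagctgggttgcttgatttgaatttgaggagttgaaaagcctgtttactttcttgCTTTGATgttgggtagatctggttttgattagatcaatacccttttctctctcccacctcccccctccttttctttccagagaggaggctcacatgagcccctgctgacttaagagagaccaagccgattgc
Lef1: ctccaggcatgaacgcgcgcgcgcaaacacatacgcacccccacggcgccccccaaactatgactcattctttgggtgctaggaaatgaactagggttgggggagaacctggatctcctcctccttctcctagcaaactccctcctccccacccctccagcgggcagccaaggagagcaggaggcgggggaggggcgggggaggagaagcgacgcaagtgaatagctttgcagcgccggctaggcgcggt

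Dkk1 and Axin2 each held 2 matches in this window, and Lef1 held 0. The Dkk1 matches began 96 and 77 bases before the start and those of Axin2 began 232 and 132 bases before it. Among 33469 rat promoters of the same length, 14.9% held at least 1 match. Of the 7 members that have a promoter in the table, Dkk1 and Axin2 were the 2 with a match. A match is a run of letters and does not show binding.

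Dkk1, the inhibitor of the LRP5 and LRP6 co-receptors, had the largest log2 fold change for transection among the members tested on each day, at day 14. At day 14 the sensory nerve− rats held 25.7, 14.2, 2.19 and 37.0 CPM and the sensory nerve+ rats 1.70, 4.44, 1.78 and 1.604 CPM. Of the 4 sensory nerve− rats, 3 lay above all 19 rats of the other groups, whose highest value was 5.92 CPM, and the remaining one lay within the sensory nerve+ range. That rat was rat 3, the library with 39% erythroid counts. How many of all genes put 3 of these 4 rats above the other 19 was not counted. At day 3 Dkk1 lay between 0.066 and 5.92 CPM with the nerve and between 0.642 and 5.83 CPM without it, and at day 7 between 0.196 and 5.35 CPM and between 0.163 and 2.64 CPM.

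The day 14 difference in Dkk1 was 8.18-fold (log2 fold change 3.03, SE 0.769, 95% confidence interval 1.26 to 4.8) and was not called over the 14610 genes tested (unadjusted p = 0.00417, edgeR adjusted p = 0.519), while DESeq2 called it (adjusted p = 0.0129). It ranked 71 by p among these genes. Leaving out 1 rat at a time gave log2 fold changes from 2.55 to 3.47 and no call. After transection Dkk1 was 13.6-fold higher at day 14 than at day 7 (edgeR adjusted p = 0.110) and 8.52-fold higher than at day 3 (edgeR adjusted p = 0.0505), neither of which was called. The last of these was called without sensory nerve− rat 3 of day 3 (log2 fold change 4.25, edgeR adjusted p = 0.0234) and without rat 3 of day 14 (3.46, edgeR adjusted p = 0.0331). Of 7 other alternatives, 4 called Dkk1 in this comparison, and 1 of them also left out rat 3 of day 3. For day 14 over day 7, DESeq2 alone of 6 other alternatives called Dkk1. In sensory nerve+ rats its log2 fold change from day 3 to day 14 was 0.07 (95% confidence interval -2.58 to 2.73). The transection effect at day 14 minus that at day 3 was 3.08 on the log2 scale (SE 1.58, edgeR adjusted p = 0.751), so a difference between the days was not shown. Without sensory nerve+ rat 2 of day 3, which had 5.92 CPM, it was 0.62.

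Phex, an enzyme of mature osteoblasts and osteocytes that controls phosphate handling, was among the 3 genes most like Dkk1 over the 23 rats (r = 0.919), with LOC108353095 (r = 0.95) and the collagen gene Col11a2 (r = 0.887). At day 14 Phex lay at 133, 129, 26.2 and 234 CPM in the sensory nerve− rats, in the same rat order as Dkk1 above, and at 21.7, 59.4, 23.5 and 13.9 CPM in the sensory nerve+ rats. The 3 rats high in Dkk1 were also the 3 rats high in Phex. Phex was named for its correlation with Dkk1 among 15858 genes, so this match is not separate evidence. The 8 osteoblast markers, which include Phex, at day 14 summed to 11506 CPM at the lowest and 43508 CPM at the highest after transection, and to 7391 and 19283 CPM with the nerve, and their part in the Dkk1 difference was not tested. Over the 23 rats Dkk1 and the osteoblast sum had r = 0.473, and r = 0.274 after removing the group means. For the tooth sum these were 0.135 and 0.635.

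Sfrp1 and Sfrp2, which bind Wnt proteins outside the cell, were detected in every rat and called in 0 comparisons by edgeR or DESeq2. Sfrp2 had an unadjusted p under 0.05 in 1 of them. Over the 23 rats Sfrp1 ran from 8.91 CPM in a sensory nerve− rat of day 3 to 132 CPM in a sensory nerve+ rat of day 7, and Sfrp2 from 20.6 CPM in a sensory nerve+ rat of day 14 to 473 CPM in one of day 3. At day 14 Sfrp1 ranged from 15.8 to 99.8 CPM without the nerve and from 38.9 to 86.5 CPM with it. Its transection difference at day 14 was -0.77 on the log2 scale (95% confidence interval -2.18 to 0.64). Sfrp2 at day 14 lay between 40.0 and 305 CPM without the nerve and between 20.6 and 120 CPM with it (log2 fold change 0.94, 95% confidence interval -0.76 to 2.64). With the nerve intact Sfrp2 was 2.89-fold lower at day 14 than at day 7 (edgeR adjusted p = 0.515), and the groups overlapped. The 2 inhibitors deviated together within groups (r = 0.709 after removing the group means). The genes most like Sfrp1 were Loxl1, Clec3b and Igf1 (r = 0.871, 0.858 and 0.853), which encode a collagen cross-linking enzyme, a secreted lectin and a growth factor, and the gene most like Sfrp2 was Frk (r = 0.848).

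**Figure D2:**
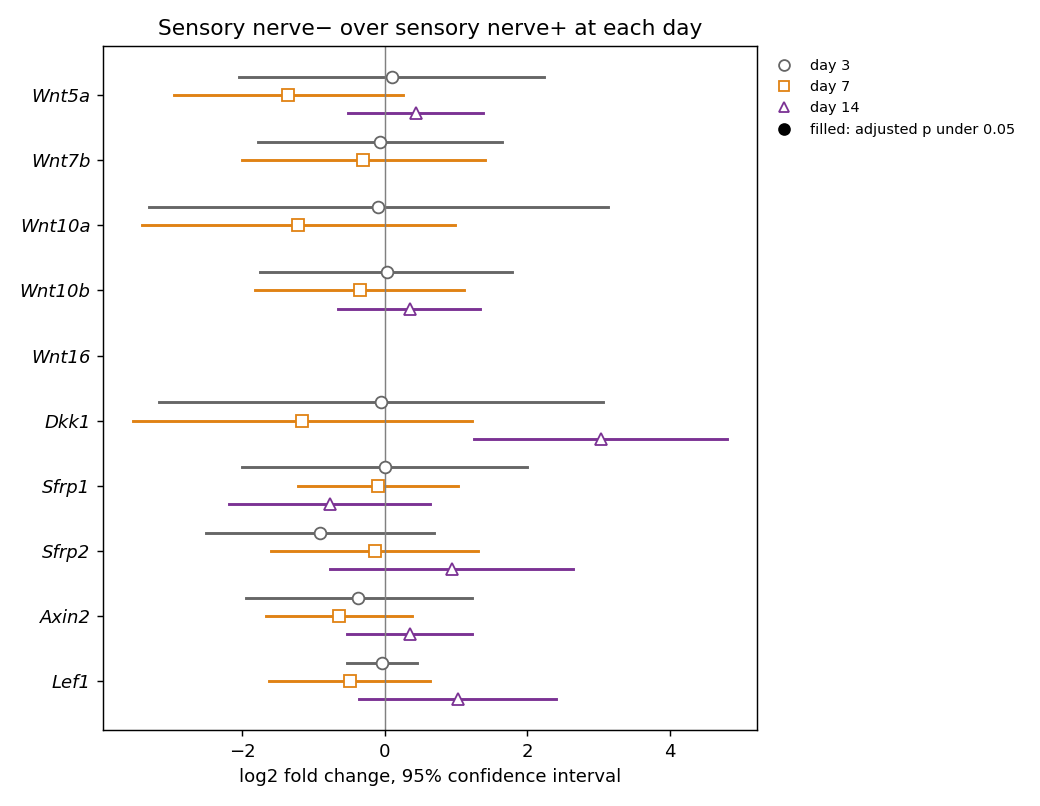
Log2 fold change of sensory nerve− over sensory nerve+ (horizontal axis) with its 95% confidence interval for each member tested at day 3 (grey circles), day 7 (orange squares) and day 14 (purple triangles). Open symbols were not called. The interval of Dkk1 at day 14, 1.26 to 4.8, is the only one that leaves out 0, and Wnt16 has no symbol because it was not tested.

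Lef1, a transcription factor that carries the β-catenin signal and is also made by T cells, also had high values in sensory nerve− rats of day 14. The sensory nerve− rats of day 14 held 96.0, 10.9, 50.1 and 31.3 CPM and the sensory nerve+ rats 27.0, 29.3, 10.97 and 24.8 CPM. Again 3 of the 4 sensory nerve− rats lay above all 19 rats of the other groups, but the rat that did not was rat 2, not rat 3 as for Dkk1. The share of all genes with such a pattern was not counted here either. At day 3 the levels were close together, from 9.72 to 16.8 CPM with the nerve and from 12.0 to 14.1 CPM without it. At day 7 they ran from 6.72 to 23.3 CPM and from 5.33 to 18.2 CPM.

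After transection Lef1 rose 3.52-fold from day 3 to day 14 (log2 fold change 1.82, SE 0.563, edgeR adjusted p = 0.0497), although the groups overlapped through rat 2. This call stood in 1 of 8 fits with 1 rat left out, the one without rat 2 of day 14. The log2 fold change was 1.18 without rat 1 of that day (edgeR adjusted p = 0.113) and 1.78 without rat 3 (edgeR adjusted p = 0.095). From day 7 to day 14 it was 2.26 (SE 0.673, edgeR adjusted p = 0.124). In sensory nerve+ rats the change from day 3 to day 14 was 0.81 (95% confidence interval -0.07 to 1.68). The transection difference at day 14 was 1.03 (95% confidence interval -0.36 to 2.41, edgeR adjusted p = 0.550, and 0.43 without rat 1), and its difference from that of day 3 was 1.06 (SE 0.749, edgeR adjusted p = 0.792).

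Lef1 moved with the T cell markers Cd3e, Cd3d, Cd3g, Lck and Cd2. Their summed level was 395, 52.0, 207 and 154 CPM in sensory nerve− rats 1 to 4 of day 14, which is the same order as Lef1, and ran from 38.6 to 105 CPM in the sensory nerve+ rats. Each of the 5 markers was above 3 counts in all 23 rats. Over these rats Lef1 and the T cell sum had r = 0.834, and r = 0.731 after removing the group means. The erythroid sum had r = 0.542 with Lef1. The part of T cells in the Lef1 values was not tested. The genes most like Lef1 were Evl, Baiap3 and Bicdl1 (r = 0.957, 0.948 and 0.943).

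**Figure D3:**
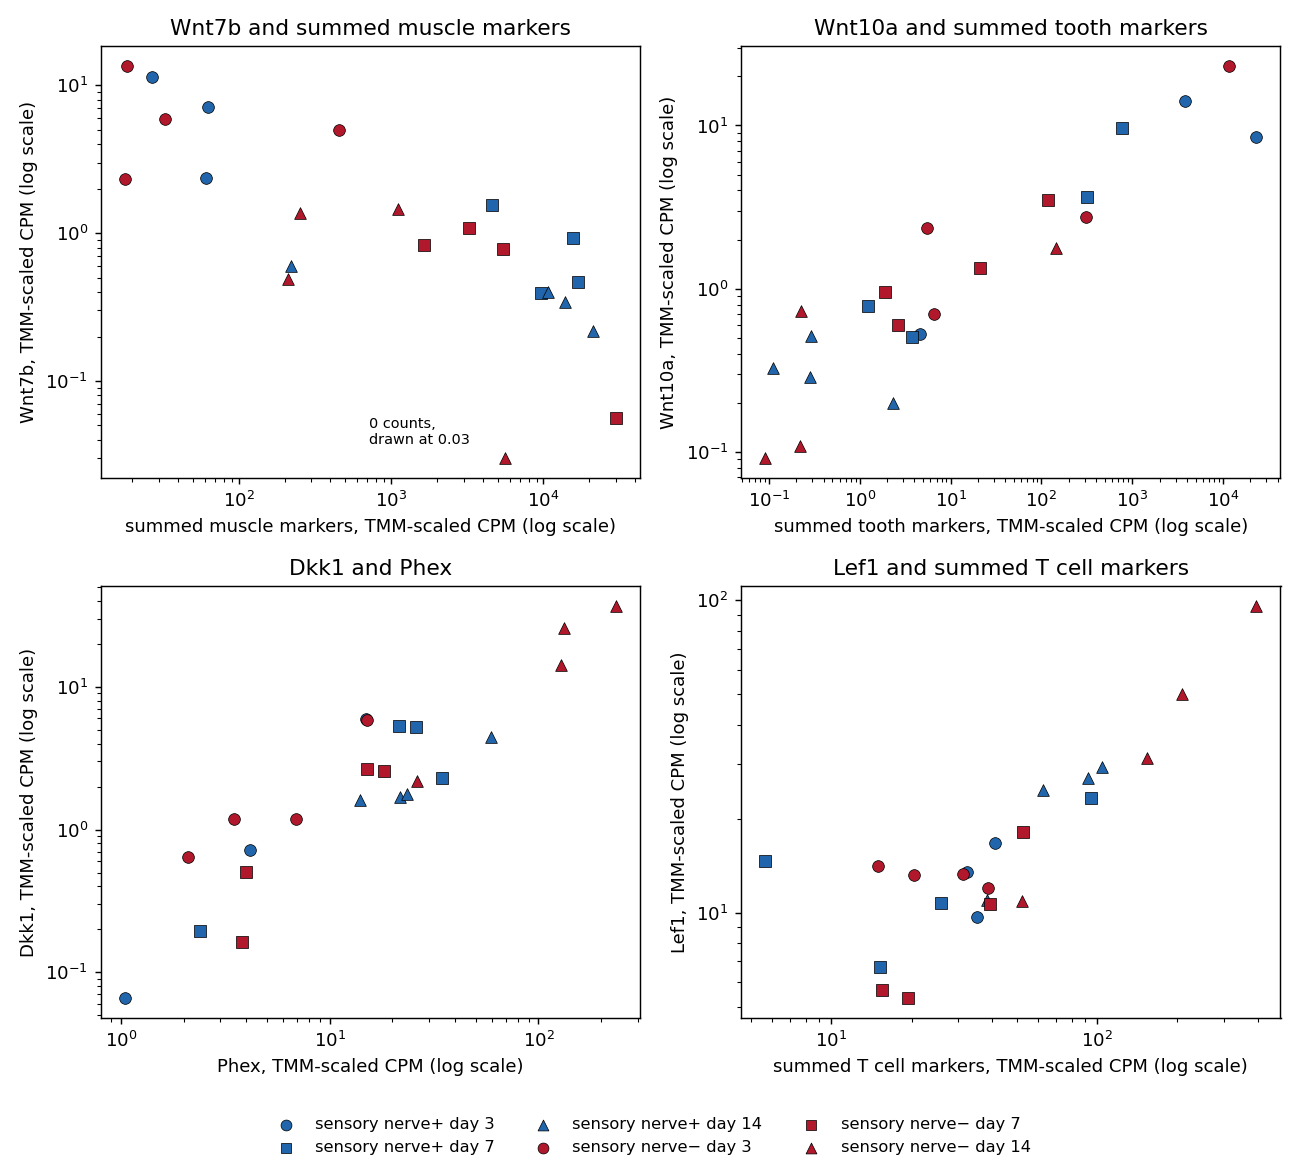
Level of Wnt7b, Wnt10a, Dkk1 and Lef1 in each of the 23 rats (vertical axes) against the summed muscle markers, the summed tooth markers, Phex and the summed T cell markers (horizontal axes), all in TMM-scaled CPM on log scales. Blue is sensory nerve+, red sensory nerve−, and circles, squares and triangles are days 3, 7 and 14, and the rat with 0 counts of Wnt7b is drawn at the bottom of its panel. Wnt7b falls as muscle markers rise, and the other 3 genes rise with their partner. The red triangles of day 14 with the highest Lef1 (96.0 CPM) and the highest Dkk1 (37.0 CPM) also have the highest T cell sum and the highest Phex.

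Axin2, which the pathway switches on and which in turn helps destroy β-catenin, was called in 0 comparisons by edgeR or DESeq2, and 0 had an unadjusted p under 0.05. The rats held 2.23, 13.3 and 7.16 CPM at day 3, 8.69, 9.02, 15.1 and 6.16 CPM at day 7, and 10.4, 8.23, 5.40 and 6.53 CPM at day 14 with the nerve intact. After transection they held 2.92, 8.34, 8.82 and 3.82 CPM, then 10.2, 3.70, 7.97 and 3.34 CPM, then 16.3, 7.77, 9.97 and 4.85 CPM. The groups overlapped on every day. The transection difference was -0.37 at day 3, -0.64 at day 7 and 0.35 at day 14 on the log2 scale, with 95% confidence intervals of -1.95 to 1.22, -1.66 to 0.38 and -0.53 to 1.22. The sign at day 14 was negative when libraries were scaled by their totals alone. The gene most like Axin2 was Prr16 (r = 0.861).

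Transection was compared on each day to ask which genes of the healing tissue differ when the nerve is lost. Of the members tested, 0 of 9 were called at day 3, 0 of 9 at day 7 and 0 of 7 at day 14, and in each the percentage of all genes called was 0. At an unadjusted p under 0.05 there were 0, 0 and 1 members (Dkk1) and 122, 215 and 1362 of all genes, and DESeq2 called 0, 0 and 1 members and 0, 1 and 103 genes. Rats with and without the nerve overlapped for every member tested, against 1.61%, 0.775% and 3.35% of all genes whose groups did not overlap. At day 7 all 9 tested members had a negative log2 fold change, also under both other scalings, beside 7529 of all 14716 genes tested. The median of the 9 was -0.49 beside -0.01 over all genes, and here the group cannot be told apart from its table. Sensory nerve+ rat 3 of day 7 had the highest Wnt5a, Wnt7b, Wnt10a, Dkk1 and Axin2 of its group, and its highest tooth sum (774 CPM). The 9 signs come from the same rats and are not independent. At day 14 the median of the 7 tested members was 0.44 beside 0.03 over all genes. Of the 7, 6 were positive, beside 7802 of all 14610 genes tested. With libraries scaled by their totals alone, 5 of the 7 were positive, with a median of 0.14 beside -0.41 over all genes. Averaged over the 3 days, 0 of 10 members and 0% of genes were called, and the effect at day 7 or day 14 minus that at day 3 was called for 0 of 10 members and for 0% of genes. In these fits of all 23 rats DESeq2 called 0 members and 7, 7 and 30 genes, and 0 members had an unadjusted p under 0.05 by edgeR.

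Time was compared within each nerve group. With the nerve intact, 1 of 9 members (Wnt7b) was called between days 3 and 7, where 6.67% of all genes were called and 25.5% had groups that did not overlap. Between days 3 and 14 it was 1 of 8 (Wnt7b), beside 5.78% called and 24.6% without overlap, and Wnt5a and Wnt7b were the 2 tested members without overlap. Between days 7 and 14 it was 0 of 7, beside 0.0202% and 5.73%, with 2 members at an unadjusted p under 0.05 and 1 called by DESeq2 (Wnt10a). After transection, 1 of 9 members (Wnt7b) was called between days 3 and 7, beside 10.5% of genes called and 21.6% without overlap. Between days 3 and 14 it was 2 of 9 (Wnt7b lower and Lef1 higher), beside 23.5% and 26.7%. Between days 7 and 14 it was 0 of 9, beside 0.0138% and 12.3%, with 2 members at an unadjusted p under 0.05 and 2 called by DESeq2 (Dkk1 and Lef1). Because Wnt7b passed the filter through its level at day 3, these counts of members describe the comparisons and are not evidence that the members changed more than other genes. In the 4 comparisons with day 3, taken in the order given, DESeq2 called 1, 3, 2 and 4 members. Whether the time course differed between the nerve groups was tested only through the transection effects above, in which 0 members were called.

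**Figure D4:**
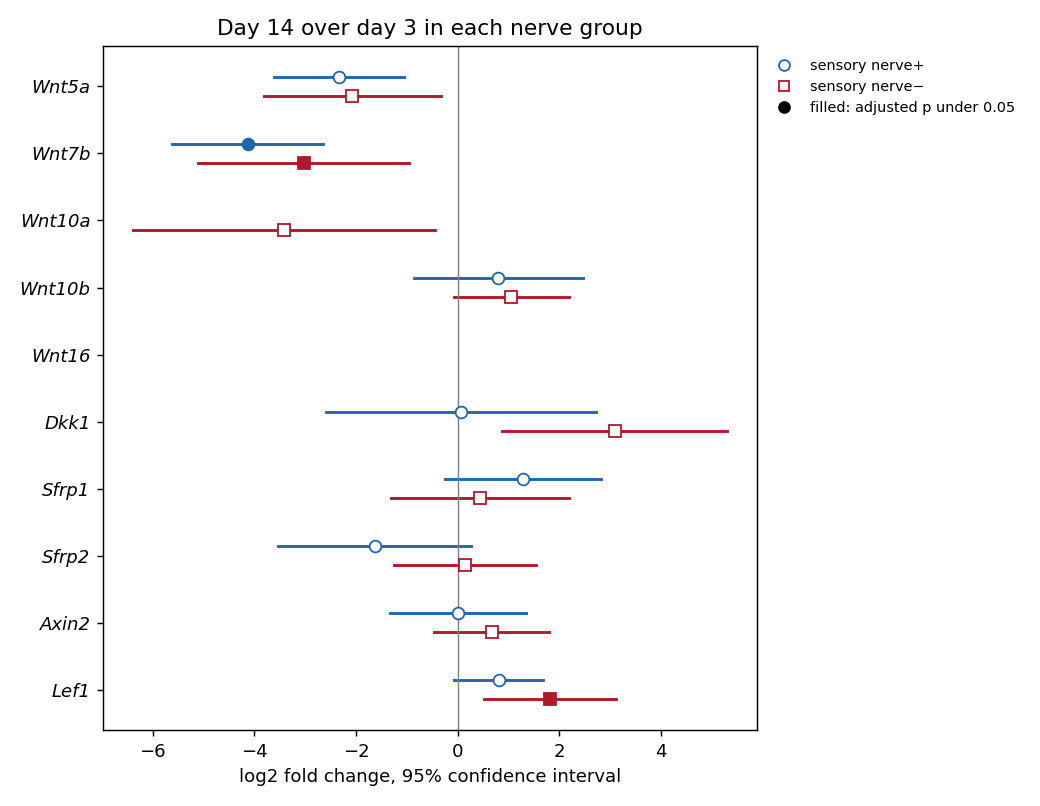
Log2 fold change of day 14 over day 3 (horizontal axis) with its 95% confidence interval for each member tested, with the nerve intact (blue circles) and after transection (red squares). Filled symbols were called: Wnt7b in both groups, at -4.13 and -3.03, and Lef1 after transection, at 1.82.

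The rest of the pathway was described through 76 other genes: ligands, proteins for ligand release and R-spondins, inhibitors, receptors, intracellular parts and targets. For transection, 0 of them were called on any day, of 66, 66 and 63 tested, with 1, 6 and 11 at an unadjusted p under 0.05. At day 7, 54 of the 66 tested had a negative log2 fold change, beside 7529 of all 14716 genes tested. The median of the 66 was -0.25 beside -0.01 over all genes. These signs also come from the same rats and are not independent, and here too the group cannot be told apart from its table.

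Between days, 2 of the other secreted inhibitors were called at each later day in the sensory nerve+ rats. Sfrp4, a relative of Sfrp1, rose 15-fold by day 7 and 16-fold by day 14 (log2 fold change 3.91 and 4.0, edgeR adjusted p = 0.0118 and 0.0298), from a mean of 8.88 CPM at day 3 to 130 and 140 CPM. Sfrp5 rose 12.9-fold by day 7 (edgeR adjusted p = 0.0322) and Igfbp4, which can bind Frizzled and LRP6, rose 5.02-fold by day 14 (edgeR adjusted p = 0.0491). Dvl1, which relays the signal from Frizzled, rose 1.91-fold by day 7 (edgeR adjusted p = 0.0378). The ligand Wnt4 fell 7.71-fold and the target Ccn4 fell 2.48-fold by day 14 (edgeR adjusted p = 0.0427 and 0.0272). In all, 3 of 66 tested genes were called by day 7 and 4 of 63 by day 14, which is near the 6.67% and 5.78% of all genes called. With 1 rat left out, Sfrp4 stayed called in 5 of 7 fits at day 7, Sfrp5 in 3 and Dvl1 in 2. At day 14 Sfrp4 and Igfbp4 stayed called in 1 of 7 fits each, and Wnt4 and Ccn4 in 2 each. Without the 2 sensory nerve+ rats rich in tooth markers, only rat 1 of day 3 remained, and these genes kept their direction.

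After transection, Myc, a target of the pathway among many others, was the 1 called gene of 63 tested at day 7, where 10.5% of all genes were called, and was 2.23-fold lower than at day 3 (edgeR adjusted p = 0.0144). At day 14, 7 of 61 were called, a smaller share than the 23.5% of all genes called in that comparison, so the genes named next describe the pathway and do not set it apart. Tcf7, a partner of β-catenin that T cells also make, rose 3.85-fold (edgeR adjusted p = 0.0274), and Frzb, another Sfrp relative, rose 5.50-fold (edgeR adjusted p = 0.0438) with overlapping groups. Of the 20 receptors tested, 13 had a negative log2 fold change, beside 7641 of all 14449 genes tested. Beside 2112 of the 14449 genes, 4 receptors were called lower. Of these, Lgr5, the R-spondin receptor, fell 7.48-fold (edgeR adjusted p = 0.00948), Fzd2 3.44-fold (edgeR adjusted p = 0.0233) and Ror1 1.85-fold (edgeR adjusted p = 0.0325). The target Ccnd1, a cyclin, fell 4.01-fold (edgeR adjusted p = 0.0351). With 1 rat left out, Lgr5 stayed called in 8 of 8 fits and Ccnd1 in 5, with its log2 fold change between -2.25 and -1.18. Tcf7 and Fzd2 stayed called in 4 of 8 fits each, Ror1 in 2 and Frzb in 1. Lgr5 was low throughout, with means of 1.97 CPM at day 3 and 0.266 CPM at day 14, and like Wnt7b it passed the filter on low counts through its level at day 3. Between days 7 and 14, 0 of these genes were called in either nerve group, with 6 and 14 at an unadjusted p under 0.05.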

How the data were processed

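RNA of mixed cells from the healing mandibular defects of 23 rats was sequenced on DNBSEQ. Per the labels and the study's methods, the authors removed low-quality and adapter reads and aligned the rest with HISAT to mRatBN7.2, and the submitters' processing notes also name Bowtie2; the counting program is not given in the sources used here. The deposited values are expected counts of 20022 genes, of which 37% were whole numbers, in 1 table of 19 rats and 1 of the 4 sensory nerve− rats of day 7. The mouse macrophage counts of the series were not used here.

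Expected counts were rounded and tested with edgeR 4.0.16 (R 4.3.3; TMM, filterByExpr, glmQLFit and glmQLFTest) for each pair of groups, and over all 23 rats for the averaged transection effect and its differences between days, with Benjamini-Hochberg adjustment over all genes tested and a threshold of 0.05. All tests were two-sided. Samples are separate rats, so p-values measure the spread between these rats. Intervals are 95% confidence intervals of the fit. The library totals, 14854389 to 18742274 counts, limit genes with few counts most, and a gene with 3 counts or fewer was treated as at the floor. Correlations used log2 CPM with a prior count of 2 over 23 rats that share groups, and carry no p. The steps were tested on simulated data at group sizes of the real comparisons: of 200 genes changed by 3 on the log2 scale, 166 were recovered for transection at day 14, 159 for day 7 over day 3 with the nerve intact and 188 for transection over all days. Among the unchanged genes 8, 10 and 12 were called. The changed genes were drawn at random, so recovery of genes with as few counts or as wide a spread as some members was not tested.

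All 10 members were named. From the 76 other pathway genes, those called were named, up to 3 per role and comparison by smallest p, and for each member the genes with the highest correlation, up to 3. Members and lists were chosen with earlier results of these data known. Alternatives were DESeq2 1.42.0, other scalings, no low-count filter, a block for the replicate number, 1 fit of all rats, leaving out each rat, leaving out day 7 in the averaged effect, and leaving out rats rich in tooth markers. Promoters came from RefSeq on GRCr8 and were searched with Python 3.11.15.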

Additional observations from a re-analysis of the deposited data

Results flagged for a closer look

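In 8 of the 50 groups of 4 rats (10 genes in 5 groups), 1 rat stood apart from the other 3, with a gap to its nearest neighbour above 0.83 of the group's range. For independent groups of normally distributed values this cut would mark about 1 group in 20. The CPM were not log-scaled and the 10 genes share the same rats, so 8 of 50 cannot be held against that rate.

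Of these, 3 were the same animal, sensory nerve− rat 3 of day 3, in which Wnt5a was at 156 CPM, Wnt10a at 23.28 CPM and Dkk1 at 5.831 CPM. This is the sensory nerve− rat whose tooth markers summed to 11714 CPM. Wnt5a was also far above its group in sensory nerve+ rat 3 of day 7, at 115.2 CPM. Sensory nerve+ rat 2 of day 14 had the highest Dkk1 of its group, at 4.437 CPM, and the lowest Sfrp1, at 38.88 CPM. Wnt10b stood at 6.433 CPM in sensory nerve+ rat 3 of day 14, and Wnt16 at 2.869 CPM in sensory nerve+ rat 4 of day 7. The reasons for these values were not tested.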

How the results depend on the processing

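Of the member differences named with a call or an unadjusted p under 0.05, 0 changed sign under an alternative. Counts of called members moved as follows. With DESeq2, 1 member was called for transection at day 14 (Dkk1) and 1 for day 14 over day 7 with the nerve intact (Wnt10a). It called 3 for day 14 over day 3 with the nerve intact (Wnt5a, Wnt7b and Wnt10a), 2 and 4 for day 7 and day 14 over day 3 after transection, and 2 for day 14 over day 7 after transection. In 1 fit of all 23 rats these last comparisons gave 3, 2, 5 and 1. Scaling by library total, or no filter on low counts, left 0 for day 7 over day 3 with the nerve intact and 0 for day 14 over day 3 after transection. Leaving out the rats with tooth markers over 3000 CPM, an alternative chosen after seeing the data, left 0, 0 and 0 for day 7 and day 14 over day 3 with the nerve intact and day 7 over day 3 after transection, and 1 (Dkk1) for day 14 over day 3 after transection. With 1 rat left out the counts ran from 0 to 1 for day 7 over day 3 with the nerve intact, 0 to 2 for day 14 over day 3, 0 to 1 for day 7 over day 3 after transection, 0 to 1 for day 14 over day 7 and 0 to 2 for day 14 over day 3. The cause of these moves was not tested, except that fits with a rat left out hold fewer samples. In the transection comparisons at days 3 and 7, over all days and between days, 0 members were called under every alternative.

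Counts over all genes moved more. Against 1002 genes called for day 7 over day 3 with the nerve intact, alternatives gave 5 to 2751. Against 871 for day 14 over day 3 they gave 0 to 3408, and against 3 for day 14 over day 7 they gave 0 to 335. After transection they gave 2 to 3262 against 1524, 0 to 2012 against 2 and 1184 to 4943 against 3396 for day 7 over day 3, day 14 over day 7 and day 14 over day 3. At day 14, transection gave 0 to 103 against 0.

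Replicate numbers are shared between groups in the labels. Of 55 pairs of same-numbered rats, 18 had deviations correlated above 0.1 (median 0.033, highest 0.679). Pairs with different numbers were not compared, so whether the numbers mark a shared factor was not tested. With the replicate number as a block, 0 members were called in any comparison, also in the 4 where Wnt7b was called (adjusted p from 0.0844 to 0.332).

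Scaling by library total alone moved the median log2 fold change of all genes by -0.44 for transection at day 14, -0.37 for day 14 over day 3 after transection and -0.50 for the difference of transection effects between days 14 and 3. Under it Dkk1 differed by 2.57 and Lef1 by 0.43 at day 14. The Dkk1 difference between the transection effects of days 14 and 3 ran from 0.62 (without sensory nerve+ rat 2 of day 3) to 4.22 (without sensory nerve− rat 3 of day 3). Recovery of differences smaller than 3 on the log2 scale was not tested.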
